A study of Mus musculus with 12 samples.

Results

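The colony-stimulating factors (CSFs) and their receptors were followed through colorectal tissue of mice with colitis-associated cancer. The set holds 8 genes, namely the ligands Csf1, Csf2 and Csf3 and the receptor genes Csf1r, Csf2ra, Csf2rb, Csf2rb2 and Csf3r. They were chosen by symbol from the deposited table of 18514 genes, and all 8 were found in it. CSF ligands are secreted proteins that keep myeloid cells alive and drive their division and maturation. Csf1 (M-CSF) acts on macrophages and monocytes through Csf1r, a receptor tyrosine kinase that also binds interleukin 34. Csf2 (GM-CSF) acts on macrophages, dendritic cells and granulocytes through the alpha chain Csf2ra and a beta chain, Csf2rb, that is shared with the receptors for interleukins 3 and 5, while mice carry a further beta chain, Csf2rb2, that serves interleukin 3. Csf3 (G-CSF) acts mainly on neutrophils through Csf3r. In the colon, ligands of this kind are made by epithelium, stroma and lymphoid cells, and the receptors sit mostly on cells of the immune system.

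RNA was sequenced from colorectal tissue of 12 mice, 1 library per mouse and 3 mice in each of 4 groups. The mice were C57BL/6 males bought at 4 weeks of age. Ctrl mice received neither azoxymethane (AOM, a carcinogen) nor dextran sulfate sodium (DSS, which damages the gut lining) and drank ordinary water. Untrained mice were placed in shallow water. Ctrl_Swim mice also received neither agent and swam for up to 90 min per day, starting 2 months before the experiment. Model mice were injected with AOM at 10 mg/kg and were then given 3 cycles of 7 days of 2% DSS in drinking water, without training. Model_Swim mice received the same AOM and DSS and the same training as Ctrl_Swim mice. The RNA came from whole tissue, and the sources used here do not say whether tumor and surrounding mucosa were separated. In such bulk samples fewer cells of a type and less RNA per cell cannot be told apart.

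Total counts lay between 17256953 and 19451055 per library. Markers of colon epithelium were abundant throughout, with a mean of 8247 CPM (counts scaled to library size) for Muc2, the main gel-forming mucin. Some libraries stood apart. The summed level of 17 genes of pancreatic acinar cells was 52473 CPM in Model 1 and 25628 CPM in Model 3, against at most 213 CPM in any other library. Markers of squamous epithelium summed to 508 CPM in Ctrl_Swim 4, above the 13.5 and 81.4 CPM of the other Ctrl_Swim libraries, and ranged from 37.8 to 1638 CPM in Model and from 169 to 1183 CPM in Model_Swim. Ctrl_Swim 4 was also the highest of its group in B cell markers (188 CPM) and T cell markers (92.3 CPM). Results that rest on these libraries are given with and without them. By the share of trace reads of pancreatic genes, the 3 Model libraries fell into a different set from the 3 Model_Swim libraries, so this property and swimming cannot be told apart between these groups.

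Csf3r had 45 to 287 reads per library and Csf1, Csf1r, Csf2ra, Csf2rb and Csf2rb2 had more than 140 in each, while Csf2 and Csf3 were scarce. Levels between genes were compared on FPKM, which is scaled to transcript length by the authors. On this scale Csf1r was the most abundant member, with a mean of 16.6 FPKM over the 12 libraries. It was followed by Csf1 (7.05 FPKM), Csf2rb (5.23 FPKM), Csf2rb2 (3.85 FPKM) and Csf2ra (2.78 FPKM). Csf3r stood lower at 1.21 FPKM, and Csf3 (0.162 FPKM) and Csf2 (0.0392 FPKM) closed the order. The place of Csf2ra in this order depended on the length used. The FPKM of Csf2ra implied a length of 9.63 kb, against 2.87 kb of merged exons in GENCODE M21, and per kb of these exons it reached 9.31 CPM, second to the 12.3 CPM of Csf1r. The RefSeq gene reaches beyond that of GENCODE, from chr19:61217191 against chr19:61223957. If the reads were counted over a gene model longer than these exons, 9.31 CPM per kb is too high. The annotation used for counting was not given.

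**Figure D1:**
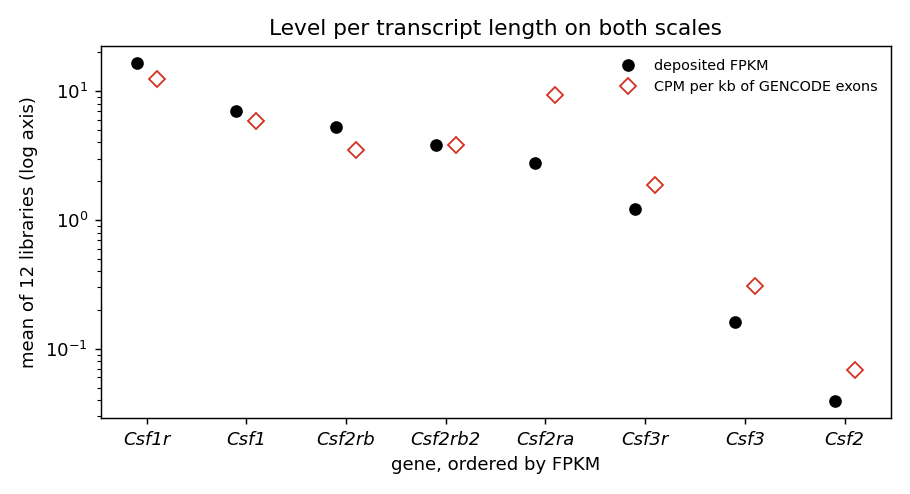
Mean level of each member over the 12 libraries on a log axis, as deposited FPKM (black circles) and as CPM per kb of GENCODE exons (red diamonds). Csf1r is highest on both scales, Csf3 and Csf2 are lowest, and Csf2ra is the member that the choice of length moves most, from 2.78 FPKM to 9.31 CPM per kb.

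The members lie on 6 chromosomes of GRCm38. By GENCODE M21, Csf1 spans chr3:107741048-107760469 on the minus strand, Csf2 chr11:54247271-54249667 on the minus strand and Csf3 chr11:98701263-98703629 on the plus strand. Csf3r spans chr4:126024550-126044440 on the plus strand and Csf2ra chr19:61223957-61228429 on the minus strand. Both beta chains are neighbors, Csf2rb2 at chr15:78282507-78305721 on the minus strand and Csf2rb at chr15:78325752-78353847 on the plus strand, 20030 bases apart. Csf1r shares 873 bases with Hmgxb3 on the opposite strand, and Csf2 shares 2068 bases with the antisense gene Gm12223. The libraries were stranded, but the strand setting of the counting was not given in the sources used here.

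The coding sequences of the beta chains are nearly identical, which bears on the values of this pair. Over 2628 aligned coding bases, 95.2% were identical, and the longest identical run was 242 bases. Of all stretches of 100 bases in the transcripts of Csf2rb, 4.63% also occurred in Csf2rb2, and of those of Csf2rb2, 6.82% occurred in Csf2rb. For stretches of 150 bases these shares were 2.3% and 3.3%, so most stretches of these lengths differ between the genes. A read from such a stretch cannot be assigned to 1 of these genes, so the split between them is uncertain. The first 120 coding bases, from GENCODE M21, show how few positions separate them. Capitals mark the 4 positions that differ.
Csf2rb: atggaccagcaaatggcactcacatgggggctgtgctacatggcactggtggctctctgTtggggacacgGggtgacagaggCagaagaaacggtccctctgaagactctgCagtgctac
Csf2rb2: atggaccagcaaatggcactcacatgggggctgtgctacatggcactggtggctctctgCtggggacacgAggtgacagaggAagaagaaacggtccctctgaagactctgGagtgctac

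Promoters were at hand in the RefSeq table on GRCm38.p6 for 5 members, Csf1, Csf2, Csf2ra, Csf2rb2 and Csf3r. The 250 bases before the start were searched on both strands for the letters of 5 motifs. These were GAGGAA for the core of PU.1, the factor of myeloid genes, TTGCNNAA for C/EBP, 3 G, any 5 bases and 2 C for kB, the motif of NF-kB, TGANTCA for AP-1 and TGTGGT for RUNX, and they were found in 23.3%, 9.56%, 45.8%, 6.75% and 14.0% of the 32851 promoters in the table. Shown are a ligand, a beta chain and the neutrophil receptor, whose levels differed between the groups as described next. The bases outside the GENCODE gene are printed on the strand of the gene, and capitals mark the matches. For Csf3r these bases lie inside the span of the RefSeq gene, which begins at chr4:126023441. Csf1, at chr3:107760470-107760719, holds 4 kB matches in 3 stretches, 2 of which overlap. Csf2rb2, at chr15:78305722-78305971, holds 1 PU.1 match, and Csf3r, at chr4:126024409-126024549, holds 1 kB match in the part shown. Outside the part shown, Csf3r also holds 1 PU.1 match, 86 bases before the start.
Csf1: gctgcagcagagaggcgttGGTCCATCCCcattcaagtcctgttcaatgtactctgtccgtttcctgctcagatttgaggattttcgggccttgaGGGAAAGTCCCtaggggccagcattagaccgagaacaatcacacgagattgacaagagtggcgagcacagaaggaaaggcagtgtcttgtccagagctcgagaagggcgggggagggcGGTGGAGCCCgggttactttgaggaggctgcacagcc
Csf2rb2: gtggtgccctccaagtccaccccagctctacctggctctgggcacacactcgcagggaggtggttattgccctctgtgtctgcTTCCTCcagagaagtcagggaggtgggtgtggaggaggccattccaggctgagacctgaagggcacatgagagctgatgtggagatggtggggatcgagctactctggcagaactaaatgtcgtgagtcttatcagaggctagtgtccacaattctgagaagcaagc
Csf3r: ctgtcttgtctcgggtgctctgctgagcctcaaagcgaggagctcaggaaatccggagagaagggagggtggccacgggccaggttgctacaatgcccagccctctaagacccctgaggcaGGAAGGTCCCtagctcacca
A match is a run of letters and not a bound site, and 45.8% of promoters hold the kB letters.

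Enough counts for a test were present in 7 members, and Csf2 was not tested. Csf3 passed the filter on low counts only through libraries of the AOM/DSS groups, which favors a difference, and it is given with its counts. The counts out of 7 members and their median below include Csf3, so they are favored as well. A call required, in edgeR's quasi-likelihood test, an adjusted p below 0.05 together with a fold change above 2 or below 0.5, and p-values were adjusted over 15484 genes. The p-values measure the spread between the mice sampled. Between Model and Ctrl, 4 of the 7 tested members were called higher (Csf2rb, Csf2rb2, Csf3 and Csf3r), where 6.21% of all genes tested were. All 7 tested members rose by the adjusted p alone, against 16.5% of all genes, and in all 7 every Model library lay above every Ctrl library, against 21.0% of all genes. Their median log2 fold change was 1.25, beside 0.0055 over all genes. Between Model_Swim and Ctrl_Swim, 1 of the 7 was called (Csf3r), where 0.924% of all genes were called higher, and Csf1 and Csf3r passed in this direction by the adjusted p alone, as did 3.49% of all genes. In 4 of the 7 (Csf1, Csf1r, Csf3 and Csf3r) all Model_Swim libraries lay above all Ctrl_Swim libraries, against 15.9% of all genes. Averaged over swimming, the effect of AOM/DSS was called in 3 of the 7 (Csf2rb2, Csf3 and Csf3r), against 3.54% of all genes in this direction, and 7 passed by the adjusted p alone, against 17.0% of all genes. The comparison with Model and that with Model_Swim use different control mice, whereas the average uses the libraries of both.

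Swimming gave no called member in either setting. Between Model_Swim and Model, 0 of the 7 passed by edgeR (0.0710% of all genes did), and 1, Csf2ra, had an unadjusted p under 0.05 (13.6% of all genes). Between Ctrl_Swim and Ctrl, 0 of the 7 passed by edgeR (0.168% of all genes did), and 1, Csf1, had an unadjusted p under 0.05 (17.6% of all genes). By DESeq2 and by limma the count was also 0 in both. DESeq2 called 115 of 18514 genes between Model_Swim and Model and 76 between Ctrl_Swim and Ctrl. Limma on log2(FPKM + 1) called 11 and 5 of 13851 genes. The interaction asks whether swimming acted differently with and without AOM/DSS. It passed in 0 of the 7 and in 0 of all genes by edgeR. Csf1 and Csf2rb2 had an unadjusted p under 0.05 for it, as did 19.0% of all genes. The result over all genes depended on the setting. The interaction passed in 213 of 18514 genes by DESeq2 and in 248 of 15681 by edgeR without Model 3, with no member among them. The median log2 fold change of the members between Model_Swim and Model was -0.20, beside -0.0085 over all genes. Ctrl libraries serve in the comparisons of Model and of Ctrl_Swim, so these are not independent.

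**Figure D2:**
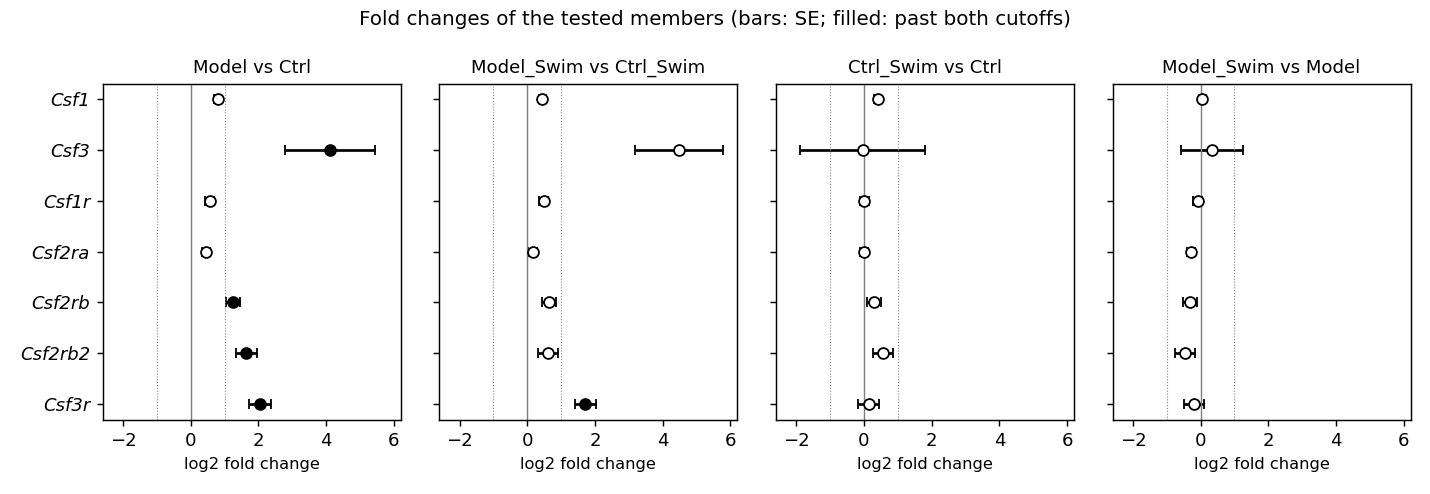
Log2 fold change of the 7 tested members in 4 comparisons, with the standard error as bars, dotted lines at a fold change of 2 in either direction and filled circles for genes past both cutoffs. The filled circles are 4 members for Model vs Ctrl and 1, Csf3r, for Model_Swim vs Ctrl_Swim, and every circle is open in both comparisons of swimming.

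Csf1, the macrophage growth factor, had the highest level of the ligands. It stood at 20.9, 21.8 and 20.8 CPM in Ctrl 1 to 3 and at 33.2, 39.2 and 37.7 CPM in Model 1 to 3. Every Model library was above every Ctrl library, and Csf1 rose 1.73-fold (log2 fold change 0.79, SE 0.108, adjusted p = 0.000809 by edgeR), short of the cutoff on the fold change. In Ctrl_Swim 2 to 4 it stood at 23.6, 29.5 and 31.0 CPM, also above all Ctrl libraries, as was the case in this direction for 12.6% of all genes. This difference had a log2 fold change of 0.40 (SE 0.108) and an adjusted p of 0.113 by edgeR, with a range of 0.0318 to 0.572 over 25 alternatives. Model_Swim 1 to 3 held 38.3, 34.8 and 41.0 CPM, which overlapped the Model libraries. Against Ctrl_Swim, Csf1 rose by 0.44 on the log2 scale in Model_Swim (SE 0.106, adjusted p = 0.0398 by edgeR), and over the alternatives this adjusted p reached 0.137. The groups thus ran from Ctrl through Ctrl_Swim to Model and Model_Swim, and the last 2 did not differ beyond their spread.

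Csf3, the neutrophil growth factor, was close to absent without AOM/DSS. Ctrl 1 to 3 had 0, 1 and 1 reads, and Ctrl_Swim 2 to 4 had 0, 2 and 0 reads. Model 1 to 3 had 31, 7 and 3 reads, and Model_Swim 1 to 3 had 4, 36 and 12 reads. All AOM/DSS libraries lay above all others, but they differed widely among themselves. The 41 reads of Model against the 2 of Ctrl gave a ratio of 20.6, with a 95% interval of 5.35 to 176 that covers counting error only. The 52 reads of Model_Swim against the 2 of Ctrl_Swim gave 26.6 (6.99 to 225). Between Model_Swim and Model the ratio was 1.25 (0.811 to 1.92). The fitted log2 fold change of Model against Ctrl was 4.11 (SE 1.33, adjusted p = 0.0355 by edgeR), and 9 of 22 alternatives lost the call. Without Model 1 the call was lost, as it was without each of Ctrl 1, 2 and 3 and without both libraries high in pancreatic genes (log2 fold change 3.14, adjusted p = 0.147 by edgeR).

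Csf2, the ligand shared by macrophages and granulocytes, was at the limit of detection. It had 2, 0 and 0 reads in Ctrl, 0 in each Ctrl_Swim library, 2, 3 and 1 in Model and 3, 0 and 1 in Model_Swim. A count of 0 allows up to 0.172 CPM at this depth. The 6 reads of Model against the 2 of Ctrl gave a ratio of 3.01 with a counting interval of 0.539 to 30.5, so no difference was detectable.

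**Figure D3:**
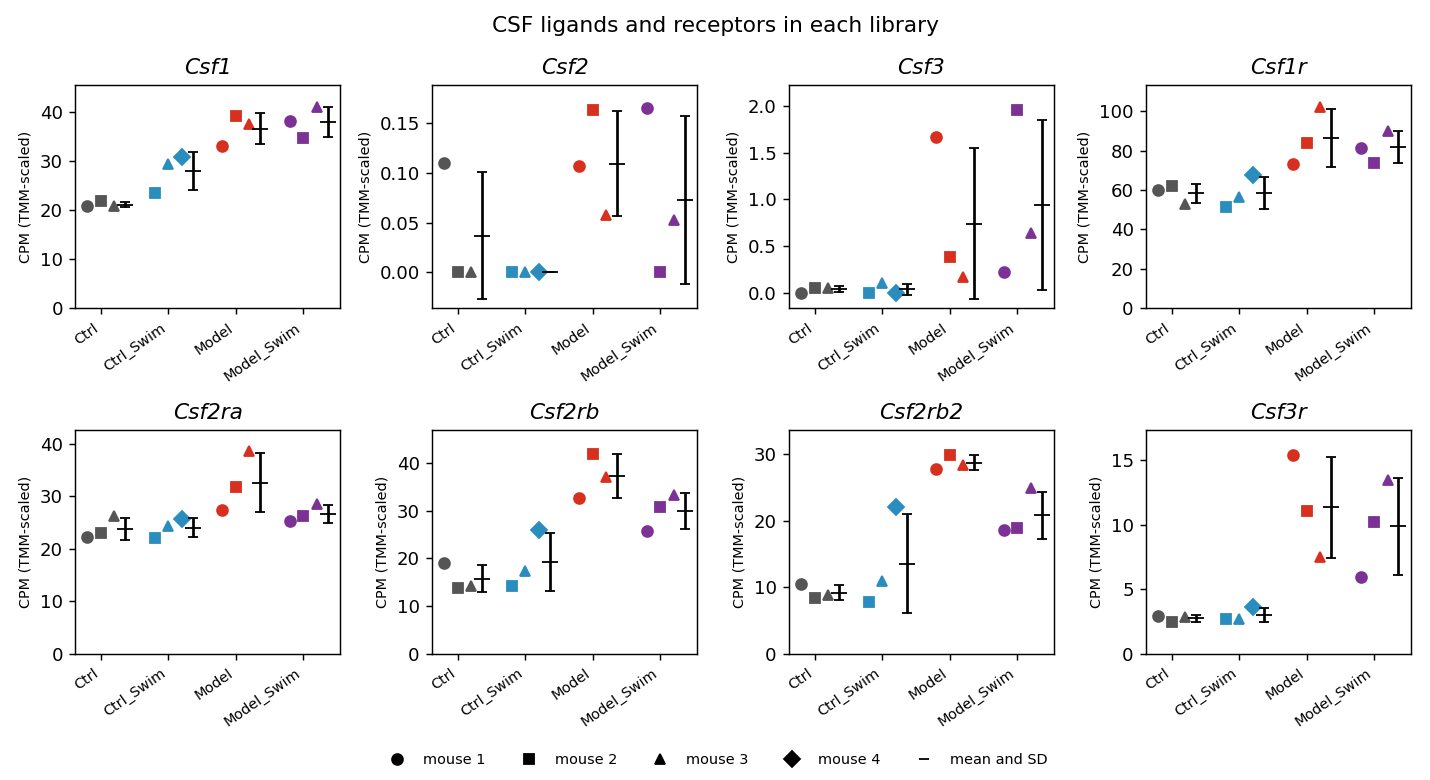
CPM of each member in each library (points, with the shape giving the number of the mouse) and the group mean with its SD (bars), on linear axes that start at 0 except for Csf2 and Csf3, whose SD bars pass below it. Csf3r lies between 2.45 and 3.58 CPM in the 6 mice without AOM/DSS and between 5.94 and 15.4 CPM in the 6 mice with it, and Csf2rb2 of Ctrl_Swim 4 lies at 22.0 CPM among the AOM/DSS libraries.

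Csf1r, the receptor for Csf1 and interleukin 34, rose in Model against Ctrl below the cutoff on the fold change. Ctrl 1 to 3 held 59.9, 61.9 and 52.9 CPM and Model 1 to 3 held 73.1, 83.8 and 102 CPM. No Model library reached down to the Ctrl range, and the log2 fold change was 0.57 (SE 0.135, adjusted p = 0.00963 by edgeR). Ctrl_Swim 2 to 4 held 51.4, 56.3 and 67.5 CPM, on either side of the Ctrl libraries, and Model_Swim 1 to 3 held 81.3, 73.7 and 89.9 CPM, within the Model range. The log2 fold change of Model_Swim against Ctrl_Swim was 0.48 (SE 0.135, adjusted p = 0.0652 by edgeR), and without Ctrl_Swim 4 it was 0.60 (adjusted p = 0.0473 by edgeR). The log2 fold change of Model_Swim against Model was -0.08 (SE 0.134, adjusted p = 0.836 by edgeR).

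Csf2ra, the chain that makes the GM-CSF receptor specific, had the smallest fold change of the 7 tested members between Model and Ctrl. Ctrl 1 to 3 held 22.2, 23.0 and 26.2 CPM, and Model 1 to 3 held 27.4, 31.7 and 38.6 CPM. The ranges were adjacent without overlap, and the log2 fold change of 0.45 (SE 0.121) had an adjusted p of 0.0166 by edgeR, which reached 0.0976 among the alternatives. Ctrl_Swim 2 to 4 held 22.0, 24.4 and 25.6 CPM and Model_Swim 1 to 3 held 25.3, 26.2 and 28.5 CPM. Model_Swim thus overlapped both Model and Ctrl_Swim. Against Model its log2 fold change was -0.29 (SE 0.121, adjusted p = 0.336 by edgeR), and against Ctrl_Swim it was 0.15 (SE 0.121, adjusted p = 0.501).

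Csf2rb, the beta chain of the receptors for GM-CSF and interleukins 3 and 5, held 18.9, 13.8 and 14.3 CPM in Ctrl 1 to 3 and 32.8, 42.0 and 37.1 CPM in Model 1 to 3. It was 2.38-fold higher in Model (log2 fold change 1.25, SE 0.209, adjusted p = 0.00197 by edgeR), and the call held in all 25 alternatives. Ctrl_Swim 2 to 4 held 14.1, 17.4 and 25.9 CPM, so that Ctrl_Swim 4 reached the lowest Model_Swim library, and Model_Swim 1 to 3 held 25.8, 30.7 and 33.4 CPM. The log2 fold change of Model_Swim against Ctrl_Swim was 0.65 (SE 0.207, adjusted p = 0.0960 by edgeR). Without Ctrl_Swim 4 it was 0.92 (adjusted p = 0.0293 by edgeR). Against Model, Model_Swim had a log2 fold change of -0.31 (SE 0.204, adjusted p = 0.532 by edgeR).

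Csf2rb2, the beta chain for interleukin 3, held 10.4, 8.29 and 8.80 CPM in Ctrl 1 to 3 and 27.8, 29.9 and 28.3 CPM in Model 1 to 3. The Model libraries were close together and all above Ctrl, a 3.12-fold difference (log2 fold change 1.64, SE 0.303, adjusted p = 0.00307 by edgeR) that held in all 25 alternatives. In Ctrl_Swim 2 to 4 it stood at 7.73, 10.9 and 22.0 CPM, where Ctrl_Swim 4 lay among the AOM/DSS libraries. In Model_Swim 1 to 3 it stood at 18.5, 18.9 and 24.9 CPM, and all of these lay below all Model libraries, as was the case in either direction for 16.9% of genes. The log2 fold change of Model_Swim against Model was -0.46 (SE 0.291, adjusted p = 0.518 by edgeR), with adjusted p-values of 0.204 to 0.981 over the alternatives. Against Ctrl_Swim it was 0.62 (SE 0.295, adjusted p = 0.246 by edgeR). Without Ctrl_Swim 4 that difference was 1.16 and was called (adjusted p = 0.0191 by edgeR). The interaction for Csf2rb2 was -1.02 on the log2 scale (SE 0.419, adjusted p = 0.224 by edgeR), and without Ctrl_Swim 4 it was -0.51.

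The ratio of the beta chains moved in the same direction as their levels, without passing the test. Csf2rb2 had 0.589 ± 0.0337 reads per read of Csf2rb in Ctrl (SD, n = 3), 0.673 ± 0.157 in Ctrl_Swim, 0.774 ± 0.0686 in Model and 0.693 ± 0.0680 in Model_Swim. The log2 ratio was 0.22 higher in the 6 AOM/DSS mice than in the 6 others (exact two-sided permutation test, p = 0.0779). Without Ctrl_Swim 4, whose ratio was 0.848, the difference was 0.31 (exact permutation p = 0.0130), and without both libraries high in pancreatic genes it was 0.15 (exact permutation p = 0.276). How reads from stretches that both genes share were counted, and their part in this ratio, was not tested.

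Csf3r, the receptor for G-CSF, had the largest fold change of the receptors between Model and Ctrl. Ctrl 1 to 3 held 2.93, 2.45 and 2.80 CPM and Ctrl_Swim 2 to 4 held 2.68, 2.71 and 3.58 CPM. Model 1 to 3 held 15.4, 11.1 and 7.52 CPM and Model_Swim 1 to 3 held 5.94, 10.2 and 13.5 CPM. Both AOM/DSS groups lay above both other groups without overlap, which 5.97% of all genes did. Csf3r rose 4.15-fold in Model against Ctrl (log2 fold change 2.05, SE 0.321, adjusted p = 0.00147 by edgeR), and this call held in all 25 alternatives, including the fit without Model 1 and Model 3 (adjusted p = 0.00327). In Model_Swim against Ctrl_Swim it rose 3.29-fold (log2 fold change 1.72, SE 0.318, adjusted p = 0.0173 by edgeR), and 8 of 25 alternatives lost this call, among them the fits without Ctrl_Swim 2, Ctrl_Swim 3, Model_Swim 2 and Model_Swim 3, where the highest adjusted p was 0.0696. Model_Swim overlapped Model (log2 fold change -0.20, SE 0.301, adjusted p = 0.820 by edgeR).

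Receptor levels were set beside the summed level of markers of the cells that carry them. Macrophage markers (14 genes, among them Lyz2, C1qb and Cd68) summed to 417 to 446 CPM in Ctrl, 410 to 505 CPM in Ctrl_Swim, 778 to 900 CPM in Model and 701 to 831 CPM in Model_Swim, with no marker at 0. In Model against Ctrl, 6 of the 14 were called higher and 1, Cd163, lower, where 6.21% and 1.22% of all genes were. Over the 12 libraries the log2 level of Csf1r followed this sum with a Pearson r of 0.93, as a description of libraries that share their treatment groups. Per summed marker CPM, Csf1r stood at 9.39 to 11.4% in AOM/DSS libraries and at 11.6 to 14.4% in the others. Lyz2 made up 44.5% of the sum, and without it the ranges overlapped, at 18.9 to 21.4% and 19.7 to 23.2%. Csf2ra was lower per marker in AOM/DSS libraries with Lyz2 (3.43 to 4.29% against 5.03 to 5.96%) and without it (6.49 to 8.07% against 8.13 to 9.81%). The beta chains were higher per marker on average, by 0.15 (Csf2rb) and 0.38 (Csf2rb2) on the log2 scale and by 0.37 and 0.60 without Lyz2, with ranges that overlapped between AOM/DSS and other libraries. Both followed the macrophage sum, with a Pearson r of 0.93 for Csf2rb and 0.91 for Csf2rb2. The part of macrophage markers in the differences of these receptors was not tested.

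Markers of structural cells moved as well. Fibroblast markers (10 genes) had a summed level of 1484 ± 74.9 CPM in the Ctrl mice and 1434 ± 126 CPM in the Ctrl_Swim mice (SD, n = 3). The Model mice had 2652 ± 155 CPM and the Model_Swim mice 2247 ± 307 CPM (SD, n = 3), without overlap between Model and Ctrl, and 9 of the 10 rose by the adjusted p alone in Model against Ctrl (16.5% of all genes). Csf1 followed this sum with a Pearson r of 0.80 and the macrophage sum with one of 0.92 over the 12 libraries. Markers of colon epithelium (15 genes) had a summed level of 27857 ± 1884 CPM in the Ctrl mice, against 18393 ± 6903 CPM in the Model mice (SD, n = 3), with the lowest value of 12224 CPM in Model 1, and 7 of the 15 fell by the adjusted p alone (16.2% of all genes). Ctrl_Swim and Model_Swim held 24386 ± 2658 and 23431 ± 1592 CPM of them (SD, n = 3). The part of these markers in the differences of Csf1 and the other members was not tested.

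Neutrophil markers (18 genes) summed to 17.8 to 29.9 CPM in Ctrl and 24.2 to 35.01 CPM in Ctrl_Swim. In the AOM/DSS groups the sum was uneven, with 350, 425 and 29.8 CPM in Model 1 to 3 and 59.4, 630 and 437 CPM in Model_Swim 1 to 3. Ltf, the gene of lactoferrin, which glands also make, contributed 64.5% of it. Elane, the gene of neutrophil elastase, had at most 0.268 CPM in any library. Of the 18 markers, 14 were tested and 10 were called higher in Model against Ctrl, where 6.21% of all genes were. Of the 14, 8 passed the filter on low counts only through AOM/DSS libraries, and these include 7 of the 10 called, so the count is given as a description. Csf3r followed the sum with a Pearson r of 0.90 over the 12 libraries. In Model 3, Csf3r stood at 7.52 CPM where the marker sum was within the Ctrl range. Ly6g and Mmp9 made up much of the Ctrl sums, with 17.8 and 7.78 CPM of the 29.9 CPM in Ctrl 1. A sum within the Ctrl range therefore does not show each marker at its Ctrl level. S100a8, a calprotectin chain, had 1.38 CPM in Model 3, above the 0.055 to 0.273 CPM of Ctrl. S100a9 had 2.87 CPM there (0.221 to 0.660 in Ctrl) and Cxcr2 1.66 CPM (0.110 to 0.164). Fpr1 had 1.26 CPM (0 to 0.109) and Fpr2 1.61 CPM (0 to 0.273). Ly6g, Ltf, Retnlg, Camp, Mpo, Elane and Stfa2l1 were not above Ctrl in Model 3. The part of neutrophil markers in the difference of Csf3r was not tested.

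T cell markers (10 genes) also moved with Csf2rb2, with a Pearson r of 0.93 over the 12 libraries. They summed to 33.4 to 40.8 CPM in Ctrl, 72.5 to 112 CPM in Model and 63.7 to 71.0 CPM in Model_Swim, and Ctrl_Swim 4 was high in both (92.3 CPM of T cell markers and 22.0 CPM of Csf2rb2). B cell markers summed to 43.0 to 90.5 CPM in Ctrl, 175 to 207 CPM in Model and 59.4 to 95.3 CPM in Model_Swim, so they overlapped Ctrl in Model_Swim while Csf2rb2 lay above Ctrl there. Of the 10 genes of each list, 6 T cell and 9 B cell markers were called higher in Model against Ctrl, beside 6.21% of all genes, and their part in the difference of Csf2rb2 was not tested. Calls were also made in 3 of 10 markers of monocytes, 1 of 9 of dendritic cells, 3 of 9 of mast cells, 2 of 6 of innate lymphoid cells, 1 of 10 of fibroblasts, 11 of 15 of squamous epithelium and 15 of 15 tested of pancreatic acinar cells, and in 0 of the markers of eosinophils, plasma cells, endothelium and colon epithelium. A count of 1 in 9 or 10 is near the share of all genes, and 5 of the 11 squamous markers and 1 of the acinar markers passed the filter on low counts only through AOM/DSS libraries. A covariate for squamous markers kept the Model against Ctrl calls of Csf2rb, Csf2rb2 and Csf3r, with log2 fold changes of 1.04, 1.35 and 1.53, and lost that of Csf3 (2.58, adjusted p = 0.352 by edgeR).

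**Figure D4:**
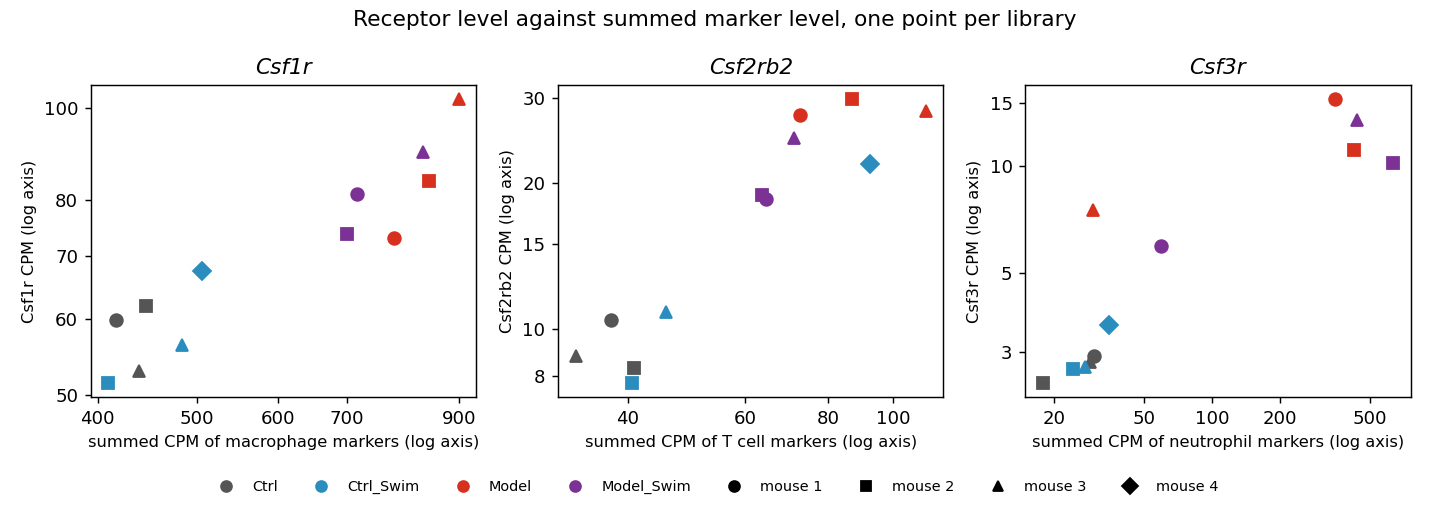
Level of Csf1r, Csf2rb2 and Csf3r (vertical, CPM) against the summed CPM of macrophage, T cell and neutrophil markers (horizontal) in the 12 libraries, on log axes, with color for the group and shape for the mouse. AOM/DSS libraries lie to the upper right for Csf1r, and for Csf3r they lie higher. Ctrl_Swim 4 joins them for Csf2rb2 at 92.3 CPM of T cell markers. Model 3 has 7.52 CPM of Csf3r at 29.8 CPM of neutrophil markers, within the range of the libraries without AOM/DSS. Single markers of this sum, among them S100a9 and Cxcr2, are above Ctrl in Model 3, while others, among them Ly6g and Ltf, are not.

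Other genes of the CSF pathways were taken from lists by role, and 13 of their tested genes were called in Model against Ctrl, each of them higher. Of these 13, Il1a and Il17a passed the filter on low counts only through AOM/DSS libraries, which favors a difference. Among all genes tested, 6.21% were called higher in this comparison and 16.5% passed in this direction by the adjusted p alone, and the counts of each list stand beside these shares. Of 9 further ligands and receptors, 2 were called. Il3ra, the alpha chain of the interleukin 3 receptor, went from 4.12 ± 0.833 CPM in Ctrl to 8.49 ± 1.21 CPM in Model (SD, n = 3, adjusted p = 0.00646 by edgeR). Ptprz1, a phosphatase that binds interleukin 34, had a log2 fold change of 1.32 (adjusted p = 0.0257 by edgeR), with Model libraries from 10.04 to 43.9 CPM that overlapped Ctrl. Il34, the other ligand of Csf1r, rose by 0.80 on the log2 scale (adjusted p = 0.0146 by edgeR), below the fold cutoff. The median log2 fold change of this list was 0.70. Kit, a receptor tyrosine kinase related to Csf1r, had 112 ± 6.08 CPM in Ctrl, while Model mice had 88.7 ± 30.5 CPM (SD, n = 3, adjusted p = 0.195 by edgeR).

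Of 19 genes that carry CSF receptor signals, 3 were called higher (6.21% of all genes) and 12 rose by the adjusted p alone (16.5% of all genes), with a median log2 fold change of 0.31. Pik3cd, a lipid kinase subunit of leukocytes, rose by 1.02 on the log2 scale (adjusted p = 0.00839), Tyrobp, an adaptor of myeloid receptors, by 1.22 (adjusted p = 0.00195) and Fgr, a Src-family kinase of myeloid cells, by 1.11 (adjusted p = 0.0128, all by edgeR). Of 13 genes that restrain these signals, 3 were called higher and 8 passed by the adjusted p alone, beside the same shares of 6.21% and 16.5%, with a median of 0.37. Socs3, the inhibitor that binds Csf3r and related receptors, went from 10.8 ± 1.48 CPM in Ctrl to 42.4 ± 9.73 CPM in Model (SD, n = 3, log2 fold change 1.97, adjusted p = 0.00284 by edgeR). In Ctrl_Swim and Model_Swim it stood at 14.3 ± 7.92 and 34.6 ± 10.4 CPM (SD, n = 3, adjusted p = 0.0609 by edgeR). Dusp6, a phosphatase of ERK kinases, rose by 1.24 and Dok2, an adaptor that dampens receptor kinases, by 1.00.

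Of 13 tested transcription factors of myeloid growth, 1 was called, which is near the 6.21% of all genes. Egr1, an early response gene, rose by 1.47 in Model against Ctrl (adjusted p = 0.00214 by edgeR) and by 1.57 in Model_Swim against Ctrl_Swim (adjusted p = 0.00938 by edgeR). The list's median log2 fold change of 0.025 was near that of all genes. Spi1, the gene of PU.1, had a log2 fold change of 0.94 (adjusted p = 0.0135 by edgeR), under the fold cutoff, and Irf8, a factor of monocytes and dendritic cells, one of -0.08 (adjusted p = 0.657).

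Among cytokines that induce CSF ligands, 7 of 10 had enough counts for a test. Of these, 4 were called higher in Model against Ctrl (Il1b, Tnf, Il1a and Il17a), beside 6.21% of all genes. In Model_Swim against Ctrl_Swim, 3 were called higher (Il1b, Tnf and Il1a), beside 0.924% of all genes. Il1a and Il17a passed the filter on low counts only through AOM/DSS libraries, which favors a difference, so no median is given. Il1b, the gene of interleukin 1 beta, went from 1.04 ± 0.297 CPM in Ctrl to 17.8 ± 9.998 CPM in Model (SD, n = 3, log2 fold change 4.09, adjusted p = 0.000737 by edgeR). In Ctrl_Swim and Model_Swim it stood at 1.14 ± 0.186 and 14.8 ± 6.90 CPM (SD, n = 3, adjusted p = 0.00609 by edgeR). Tnf, the gene of tumor necrosis factor, rose by 3.32 (adjusted p = 0.00101) and 2.18 (adjusted p = 0.0250) in these comparisons by edgeR. Il1a and Il17a reached at most 4.72 and 1.501 CPM in Model, with 3 and 5 reads in all Ctrl libraries together. Between Model_Swim and Model, 0 genes of the 5 lists were called by edgeR (0.0710% of all genes were).

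Across the 12 libraries the members moved together to different degrees. The log2 levels of Csf2rb and Csf2rb2 had a Pearson r of 0.98, those of Csf3 and Csf3r one of 0.88, and those of Csf1 and Csf1r one of 0.86, while Csf2ra and Csf3 had the lowest r of 0.38. These libraries share their treatment groups, and the beta chains share stretches of sequence. Among all genes tested, those with the pattern most like Csf1 were Cd300a (r = 0.98), Abca2 (0.97) and Nid1 (0.96), and those most like Csf1r were Mpeg1 (0.97), Nin (0.96) and Map3k1 (0.96). Csf2rb was nearest to Vcam1 (0.99), Wdr91 (0.98) and Cd300ld (0.98), and Csf2rb2 to Wdr91 (0.99), Rassf5 (0.99) and Laptm5 (0.99). Csf3r was nearest to Il1b (0.98), Tnf (0.98) and Steap4 (0.98). For Csf2ra the nearest genes, Pqlc2 (0.92), Cd48 (0.91) and Ms4a12 (0.91), were less close.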

How the data were processed

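RNA was isolated from colorectal tissue (mirVana kit per the labels, TRIzol per the methods of the paper), and TruSeq Stranded mRNA libraries were sequenced on an Illumina instrument. The authors trimmed reads with Trimmomatic, mapped them to GRCm38.p6 with HISAT2, counted them per gene with HTSeq-count and deposited these raw counts. FPKM values, scaled by the authors to transcript length and library size with Cufflinks, were also deposited. Versions, annotation and strand setting are not given in the sources used here.

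The analysis used edgeR 4.0.16 under R 4.3.3. The filter filterByExpr (minimum count 10) left 15484 of 18514 genes, TMM factors scaled the libraries, and 1 quasi-likelihood fit of the 4 groups gave each comparison, with Benjamini-Hochberg adjustment over all genes kept. CPM values carry the TMM factors, with a prior count of 2 on the log2 scale. Depth of 17256953 to 19451055 counts makes 3 counts equal to at most 0.172 CPM, and intervals and limits cover counting error only. The beta chain ratio was tested by exact permutation in SciPy 1.17.1. Group labels came from the sample titles and treatments. No pair of libraries within a group agreed within counting noise (chi-square per gene at least 7.69 over 12 pairs). The replicate numbers showed no clear pairing of the samples, though these values cannot exclude it. The correlation of deviations was -0.26 to 0.56 (median 0.0046) over 15 same-numbered pairs. Over 39 pairs with other numbers it was -0.56 to 0.45 (median -0.031).

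The members, gene lists and tests were chosen with earlier results of these data known. The rule for named genes took every member and, from each other list, at most 4 genes past both cutoffs in Model against Ctrl, those with the largest mean CPM, or the 2 most abundant where none passed. Marker genes among these are given mostly through their summed level. The lists of pathway genes and cell markers were written from general knowledge. Other genes of these lists (Il34, Kit, Spi1, Irf8, Cd163, Elane, Ly6g, Mmp9, Cxcr2, Retnlg, Fpr1, Fpr2, Camp, Mpo, Stfa2l1) were named after their values were seen. For each member of at least 1 CPM, the 3 tested genes with the highest Pearson r were named, leaving out members and gene models. Alternatives were DESeq2 1.42.0 and its size factors, the unfiltered table, a fit of the compared pair of groups, a block for the replicate number, calls from the adjusted p alone, covariates for acinar and squamous markers, a term for trace reads of pancreatic genes, limma 3.58.1 on log2(FPKM + 1) with and without a minimum mean of 0.5 and on log2(FPKM + 0.1), and leaving out libraries. Marker sums without Lyz2 or Ltf were chosen after seeing the data. All scripts for the tests across genes were first tested on simulated data.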

Additional observations from a re-analysis of the deposited data

How the results depend on the processing

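Of 1021 recomputed values of the 7 tested members over the 6 comparisons, 941 kept their direction and their side of both cutoffs. A call was lost in 25 and gained in 18. Another 37 changed sign, and 0 of these 37 had an adjusted p under 0.05 by edgeR, DESeq2 or limma. Between Model and Ctrl, 4 members were called, 7 by the adjusted p alone, and Csf3 lost its call in 9 of its 22 alternatives. Between Model_Swim and Ctrl_Swim, where 1 was called, the count was 0 with the term for trace reads and by limma on log2(FPKM + 1) with or without the filter, and 2 without both libraries high in pancreatic genes and by the adjusted p alone. Leaving out 1 library gave 0 to 2, with 0 without Ctrl_Swim 2, Ctrl_Swim 3, Model_Swim 2 or Model_Swim 3. Among all genes tested, 155 of 15484 were called in this comparison, 54 with the term for trace reads and 802 by the adjusted p alone. By limma on log2(FPKM + 1) they were 75 of 13851 with the filter and 59 of 18399 without it. In these 4 fits without 1 library they were 71 of 15716, 52 of 15705, 50 of 15707 and 46 of 15710. For AOM/DSS averaged over swimming, where 3 were called, the count was 1 with the squamous covariate, 0 by limma on log2(FPKM + 1) with or without the filter, and 7 by the adjusted p alone. Among all genes tested, 665 of 15484 were called, 290 with the squamous covariate and 5175 by the adjusted p alone. By limma on log2(FPKM + 1) they were 225 of 13851 with the filter and 203 of 18399 without it. Of the pathway genes, 13 were called between Model and Ctrl, and 7 with the squamous covariate, 6 by limma on log2(FPKM + 1) with or without the filter and 34 by the adjusted p alone. Calls among all genes changed as well. They were 1150 of 15484, with 511 under the squamous covariate and 5066 by the adjusted p alone. By limma on log2(FPKM + 1) they were 451 of 13851 with the filter and 426 of 18399 without it. The cause was not tested. Without Lyz2 in the marker sum, the log2 level of Csf1 per macrophage marker in AOM/DSS libraries against the others was 0.019 in place of -0.20, and without Ltf that of Csf3r per neutrophil marker was 0.068 in place of -1.11. The log2 difference of the beta chain ratio lay between 0.180 and 0.311 when 1 library was left out.

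The replicate numbers are shared by groups but showed no clear pairing of the samples. With the replicate number as a block, 0 members were called between Model_Swim and Ctrl_Swim (Csf3r 1.86, adjusted p = 0.0914 by edgeR), Csf3 lost its call between Model and Ctrl at a log2 fold change of 4.003 in place of 4.11 (adjusted p = 0.0789 by edgeR), and between Ctrl_Swim and Ctrl the log2 fold changes of Csf1r, Csf2ra, Csf2rb, Csf3 and Csf3r were -0.15, -0.10, -0.014, 0.68 and -0.0076. Under the block the interaction was 0.074 for Csf1r and -0.26 for Csf3.

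Values near 0 changed sign under other settings. Between Ctrl_Swim and Ctrl, Csf3 was 0.28 with the acinar covariate, 1.38 with the term for trace reads and 0.000954 by limma on log2(FPKM + 1) without a filter. Csf3r was -0.19 with the squamous covariate and -0.00737 with the trace term, which gave -0.048 for Csf1r. Between Model_Swim and Model, Csf1 was -0.059 with the acinar covariate and -0.025 without both libraries high in pancreatic genes. When 1 library was left out, log2 fold changes between Ctrl_Swim and Ctrl lay between -0.10 and 0.11 for Csf1r, -0.028 and 0.10 for Csf2ra, -2.66 and 0.49 for Csf3, and -0.0052 and 0.23 for Csf3r. Between Model_Swim and Model they lay between -0.019 and 0.10 for Csf1, -0.19 and 0.066 for Csf1r, -0.80 and 1.72 for Csf3, and -0.51 and 0.080 for Csf3r. The interaction lay between -0.21 and 0.041 for Csf1r and between -0.77 and 2.98 for Csf3. The fit without Model 1 and Model 3 leaves 1 Model library, assumed to vary like the others. Depth limits Csf2, Csf3 and Il17a, whose counts were near 0 in most libraries.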
